A study of Mus musculus with 60 samples.

Results

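Genes that define where a cell lies between an epithelial and a mesenchymal state, 10 in all, were followed in single breast cancer cells recovered from bone: the keratins Krt7, Krt8, Krt18, Krt19 and Krt14, the adhesion genes Epcam and Cdh1 (E-cadherin), and the mesenchymal genes Cdh2 (N-cadherin), Vim (vimentin) and Fn1 (fibronectin). They were chosen by name for their textbook roles, with earlier results of these data known. All 10 were matched by symbol among the 47729 mouse genes of the deposited count table. The cells were PyMT-Bo1, a mouse mammary tumor line of C57BL6 background carrying the polyoma middle T oncogene and transduced with H2B-mApple, Thy1.1 and Luc2-EGFP. They were stained with the membrane dye Vybrant DiD, which is diluted at each division, and delivered into the left heart ventricle of wild-type female C57BL6/J mice of 8 to 10 weeks. Femurs and tibias of 5 mice were pooled at day 11. From them, 32 cells that kept the dye (DiD+) and 28 that had lost it (DiD-) were sorted 1 per well. Sorting followed Thy1.1 enrichment and excluded CD45+ and DAPI+ cells. The study calls DiD+ cells dormant and DiD- cells proliferative. All 60 cells came from the same line. The labels do not say which mouse gave which cell, so a group counts as 1 sample here, no test was run, and no difference below has a replicate check.

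Keratins are the intermediate filament proteins of epithelia and assemble from pairs of a type I and a type II chain. Krt8 (type II) and Krt18 (type I) form the pair of simple epithelia, and Krt7 and Krt19 join them in luminal mammary cells, whereas Krt14 marks basal cells. In an epithelial to mesenchymal transition, E-cadherin, Epcam and keratins are classically lost while N-cadherin, vimentin and fibronectin are gained, and transcription factors of the Snail and Zeb families bind E-boxes in the promoters of epithelial genes.

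Upstream sequences are shown for the 2 keratins that were detected in nearly every cell, for Epcam, which was not detected, and for Vim, which was detected in every cell. Each is the 250 bases before the RefSeq start in GRCm38.p6, 5′ to 3′ on the strand of the gene, with the E-box CACCTG or its reverse complement CAGGTG in capitals. Krt8 is read from chr15:102004343-102004592 (minus strand), Krt18 from chr15:102027966-102028215 (plus), Epcam from chr17:87635729-87635978 (plus) and Vim from chr2:13574061-13574310 (plus).
Krt8: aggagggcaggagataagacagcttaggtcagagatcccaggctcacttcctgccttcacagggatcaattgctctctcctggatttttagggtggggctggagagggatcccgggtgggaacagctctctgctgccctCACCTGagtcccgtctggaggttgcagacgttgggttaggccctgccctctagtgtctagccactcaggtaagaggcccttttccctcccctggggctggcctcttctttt
Krt18: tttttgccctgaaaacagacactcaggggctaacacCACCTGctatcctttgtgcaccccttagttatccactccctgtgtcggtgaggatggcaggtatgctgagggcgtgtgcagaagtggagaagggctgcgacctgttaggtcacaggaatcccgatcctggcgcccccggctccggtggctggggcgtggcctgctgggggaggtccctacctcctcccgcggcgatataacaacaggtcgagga
Epcam: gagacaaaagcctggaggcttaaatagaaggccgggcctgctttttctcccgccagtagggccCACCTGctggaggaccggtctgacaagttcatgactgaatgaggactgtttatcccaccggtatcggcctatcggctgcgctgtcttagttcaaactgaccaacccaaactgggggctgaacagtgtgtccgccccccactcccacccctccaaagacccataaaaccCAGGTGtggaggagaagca
Vim: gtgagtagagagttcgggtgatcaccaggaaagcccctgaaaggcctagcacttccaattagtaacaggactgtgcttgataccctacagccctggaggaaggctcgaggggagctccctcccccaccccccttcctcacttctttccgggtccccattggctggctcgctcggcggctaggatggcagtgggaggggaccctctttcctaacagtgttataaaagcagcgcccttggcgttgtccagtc
The E-box lay 111 bases before the start in Krt8 and 214 bases before it in Krt18, and Epcam held 2, at 187 and 19 bases. RefSeq entries were matched for 6 of the 10 genes. Among the other matched genes Krt7 held 1 E-box, 44 bases before its start, and Krt14 held none, like Vim. Of 32851 mouse promoters of this length, 17.2% held this motif on either strand. The motif was thus present upstream of keratins at high levels (Krt8, Krt18) and of genes without a count (Krt7, Epcam). Vim held the motif TATAAA, searched with TTTATA and found in 12.4% of all promoters, which the other 5 matched genes lacked. Krt19, Cdh1, Cdh2 and Fn1 had no entry.

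Depth per cell was 2276789 to 7794219 mouse counts in DiD+ and 2624405 to 6199108 in DiD- cells, and the group sums were 146074944 and 119490098. Levels below are CPM, the summed counts of a group scaled to a fixed total of mouse counts, with exact Poisson 95% intervals, and shares of cells have exact binomial (Clopper-Pearson) 95% intervals. As the reads carry no molecular identifiers, these intervals and the limits set by a count of 0 cover counting error only. In the cells, the median level of 22 summed S phase genes was 1319 CPM for DiD+ and 3591 CPM for DiD-. The groups overlapped, from 282 to 11517 CPM in DiD+ and from 834 to 12101 CPM in DiD- cells. The sum of 22 G2/M genes spanned 0.20 to 17061 CPM in DiD+ and 84.7 to 13622 CPM in DiD- cells. For this sum DiD+ cells 63, 67 and 81 lay above every DiD- cell. Spike-in RNA reached 6.53% of counts in DiD+ against 2.53% in DiD-. Macrophage markers, which the CD45 gate should remove, were present at 10 counts or more for at least 7 of 13 in DiD+ cells 19, 21, 24, 30, 37 and 88 and in DiD- cell 84. Their summed level was 0 to 20670 CPM in DiD+ and 0 to 1836 CPM in DiD- cells, and no marker of the list was at 0 in both groups. With erythroid, neutrophil and megakaryocyte lists included, 7 DiD+ and 3 DiD- wells held at least 50% of a host list, and the ratios of the main genes are also given without these 10 wells, as are those of other genes whose sign turned. One of them, DiD+ cell 30, held no count of the 4 tumor transgenes (Luc2, mApple, eGFP and Pymt), whereas the other 31 DiD+ and all 28 DiD- cells held some. Another of the 10 wells, DiD+ cell 29, was counted through the megakaryocyte list of 5 genes alone. Of that list Gp9 and Gp1ba had 0 counts in both groups, and Itga2b was counted in 15 cells (3.41 CPM in DiD+ and 2.81 CPM in DiD-).

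Most of the epithelial genes were not detected, or nearly so, at this depth (positions are in GRCm38). Krt7 (ENSMUSG00000023039, chr15:101411043-101430313), Krt19 (ENSMUSG00000020911, chr11:100140810-100148665) and Epcam (ENSMUSG00000045394, chr17:87635979-87651129) had 0 counts in each of the 60 cells. The exact Poisson intervals allow levels of up to 0.0253 CPM (DiD+) and 0.0309 CPM (DiD-). As shares, 0 of 32 and 0 of 28 cells allow up to 10.9% and 12.3% of cells with a count. Cdh1 (ENSMUSG00000000303, chr8:106603351-106670246), the main cadherin of epithelial adherens junctions, had 1 count in all, in DiD+ cell 21. Krt14 (ENSMUSG00000045545, chr11:100203162-100207548), the basal keratin, was found in 3 cells only. It had 155 counts (35.9 CPM) in DiD+ cell 88, a well with macrophage RNA, 89 counts (18.5 CPM) in DiD- cell 39 and 69 counts (17.9 CPM) in DiD- cell 40. The labels call these cells breast cancer cells, and 4 of the 7 epithelial genes, including both adhesion genes, were thus at or next to 0 in both groups.

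**Figure D1:**
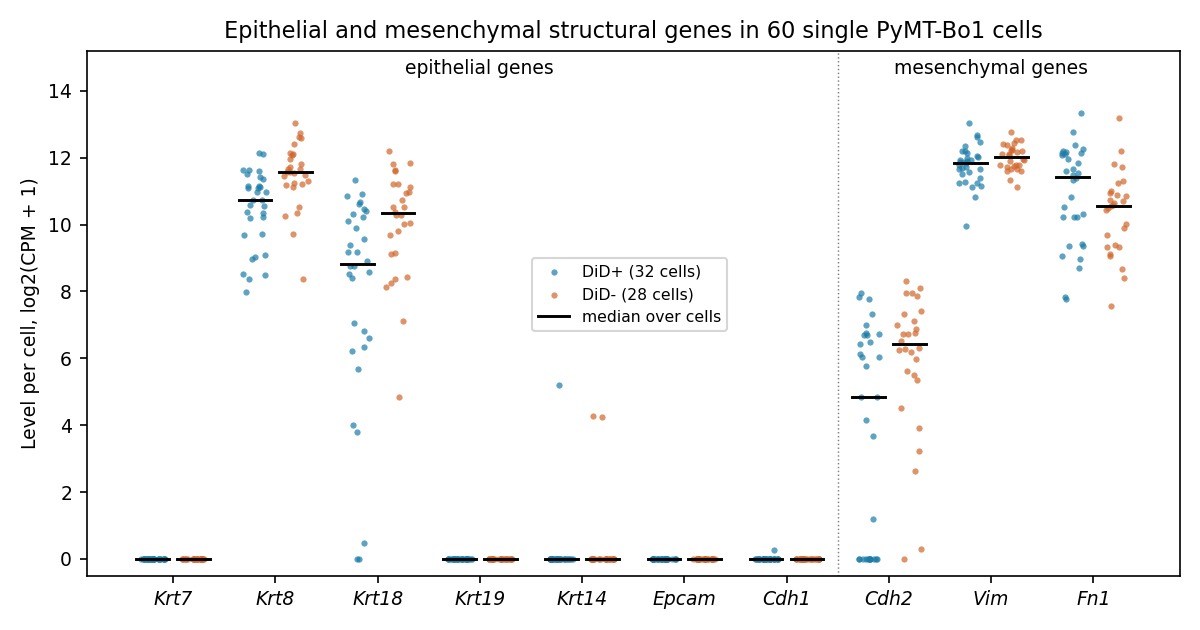
Level of each of the 10 genes in each cell, as log2(CPM + 1), for 32 DiD+ (blue) and 28 DiD- (orange) cells, with black bars at the median over cells. Krt7, Krt19 and Epcam lie at 0 in all cells, Vim lies high in every cell, the lowest Krt18 levels are in DiD+ cells, and Cdh2 is at 0 in 12 DiD+ cells and 1 DiD- cell.

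Krt8, Krt18, Cdh2, Vim and Fn1, 5 of the 10 genes, reached 10 CPM in a group. In DiD+ cells, the keratin pair and N-cadherin were lower, vimentin was almost level, and fibronectin was higher. Thus 2 of the mesenchymal genes differed in opposite directions. Of these 5 genes, 1 (Krt18, lower in DiD+) passed a log2 ratio of 1 in absolute size. Of all 8814 genes that reached 10 CPM, 9.55% passed it in either direction and 3.18% as lower in DiD+. The median log2 ratio of all these genes was -0.0041, that of the 2 detected epithelial genes was -1.003, and that of the 3 mesenchymal genes was -0.13.

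Krt8 (ENSMUSG00000049382, chr15:101996698-102004482, minus strand) was present in every cell. Its level was lowest at 251 CPM in DiD+ cell 31, had a median of 1693 CPM and was highest at 4504 CPM in DiD+ cell 67. In DiD- cells it ran from 329 CPM in cell 65 through a median of 3042 CPM to 8391 CPM in cell 92. The ranges overlapped in their lower part, with 1 DiD+ cell below the lowest DiD- cell, and 5 DiD- cells (33, 40, 85, 90 and 92) lay above the highest DiD+ cell. Summed, the level was 1831 CPM (1824 to 1838) in DiD+ and 3395 CPM (3385 to 3406) in DiD-, a log2 ratio of -0.89, or 1.85-fold lower in DiD+. The ratio lay at the 4.28th percentile of the 8814 genes. Leaving out 1 cell at a time gave -0.97 to -0.83, and leaving out the 10 wells with host RNA gave -0.98. A processed pseudogene, Krt8-ps, took 458 counts in DiD+ and 671 in DiD-, and reads shared with it cannot be placed with certainty.

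Krt18 (ENSMUSG00000023043, chr15:102028180-102032027, plus strand), the partner of Krt8, differed most among the 5. Its level in DiD+ cells ran from 0 in cells 35 and 68 through a median of 455 CPM to 2598 CPM in cell 88, one of the wells with macrophage RNA. In DiD- cells it ran from 27.5 CPM in cell 65 through a median of 1295 CPM to 4731 CPM in cell 27. DiD+ cells 31, 35, 41, 68 and 75 lay below the lowest DiD- cell, and 5 DiD- cells lay above the highest DiD+ cell, while the others overlapped. Summed, it was 728 CPM (724 to 733) in DiD+ and 1578 CPM (1571 to 1585) in DiD-, a log2 ratio of -1.11, or 2.17-fold lower in DiD+, at the 2.26th percentile. Without DiD- cell 27, which held 12.6% of the DiD- counts, the ratio was -0.98 and no longer passed 1. Without the wells with host RNA it was -1.40, and wells with macrophage RNA held 33.6% of the Krt18 counts of DiD+ cells.

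The 5 DiD+ cells with Krt18 below the lowest DiD- cell held 0 to 14.9 CPM of Krt18, yet 251 to 1204 CPM of Krt8, 2256 to 4074 CPM of Vim and 419 to 6982 CPM of Fn1. Each had 0 counts of Cdh2. Tumor transgenes had 326 to 1154 counts in each of these cells, which held 1 to 3 of the 13 macrophage markers. They also held 3 to 5 of the 11 bone marrow stromal markers, against 2 to 5 over all DiD+ cells and 1 to 5 over all DiD- cells, and of that list Ebf3, Adipoq and Lum had 0 counts in both groups and Lepr 0 in DiD+. Their depth was 2276789 to 4975089 counts, and their spike-in share ranged from 1.33 to 6.53%, which includes the highest share of any cell. Whether depth or RNA content has a part in the low Krt18 was not tested.

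Krt8 and Krt18 moved together from cell to cell. Spearman's rho of their CPM was 0.82 over the 60 cells, 0.72 within DiD+ and 0.83 within DiD- cells, and 0.84 over the 50 cells without host RNA. Of 7544 genes that reached 10 CPM and were counted in at least 30 cells, Krt8 had the highest rho with Krt18. The next were Dynap (0.58), Ly6e (0.56) and Htra1 (0.56). Within DiD+ and DiD- cells the values were 0.60 and 0.44 for Dynap, 0.44 and 0.64 for Ly6e, and 0.41 and 0.37 for Htra1. These are descriptions over cells that share a line, a pool of mice and a CPM scale. Per kilobase of the longest coding transcript, Krt8 exceeded Krt18 by 1.85-fold in DiD+ and 1.58-fold in DiD- sums. In cells with 10 or more Krt18 counts, the median quotient was 1.83 (29 DiD+ cells) and 1.70 (28 DiD- cells). It reached 68.9 in DiD+ cell 75 and 8.78 in DiD- cell 65, the cell with the least Krt18 of its group.

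**Figure D2:**
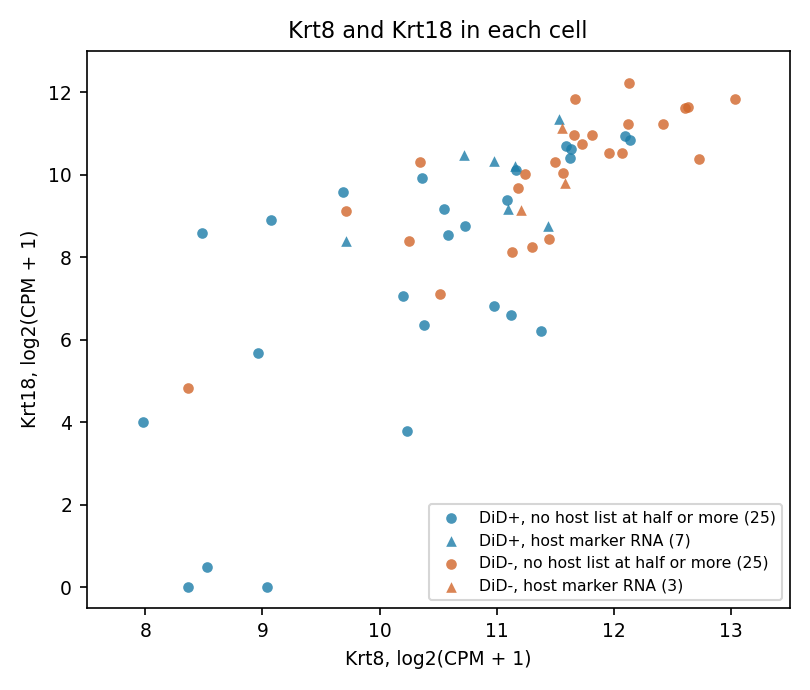
Krt18 against Krt8 in each of the 60 cells, both as log2(CPM + 1), colored by group, with triangles for the 10 wells that held at least 50% of a host marker list. The genes rise together (Spearman's rho 0.82), and 5 DiD+ cells drop to Krt18 levels below every DiD- cell. Krt8 is also low in these cells, at 251 to 1204 CPM against a DiD+ median of 1693 CPM.

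Cdh2 (ENSMUSG00000024304, chr18:16588877-16809246, minus strand), the cadherin typical of mesenchymal and neural cells, was not found in every cell. In DiD+ cells it ran from 0 through a median of 27.8 CPM to 249 CPM, and the DiD- cells spanned 0 to 317 CPM around a median of 85.02 CPM. Summed, DiD+ cells held 60.7 CPM (59.5 to 61.999) and DiD- cells 109 CPM (107 to 111), which gave a log2 ratio of -0.83, at the 5.21st percentile. Leaving out 1 cell at a time gave -0.99 to -0.73, and leaving out the wells with host RNA gave -0.83. The groups also differed in the number of cells with any count. Cdh2 had 0 counts in 12 of 32 DiD+ cells (37.5%, 21.1 to 56.3) and in 1 of 28 DiD- cells (3.57%, 0.0904 to 18.3). After each cell was thinned to 2200000 counts the numbers were again 12 and 1. Without the wells with host RNA they were 10 of 25 and 1 of 25. Among cells numbered 17 to 46 in their titles they were 6 of 18 and 1 of 12, and among cells 63 to 92 they were 6 of 14 and 0 of 16.

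The 12 DiD+ cells without Cdh2 covered the whole range of depth of the group, and none lacked Krt8, Vim or Fn1. They held 251 to 4380 CPM of Krt8, 989 to 4127 CPM of Vim and 219 to 10292 CPM of Fn1, and 197 to 1287 transgene counts. Over all DiD+ cells Cdh2 had a rho of 0.52 with transgene CPM, against -0.052 within DiD- cells and 0.26 over the 60 cells. What lies behind this was not tested. Cdh2 went with cell cycle RNA over the 60 cells, with a rho of 0.34 with the S phase list and 0.34 with the G2/M list. Within DiD+ cells these were 0.14 and 0.20, and within DiD- cells 0.41 and 0.33. This was not particular to Cdh2. Over the 60 cells the values were 0.29 and 0.32 for Krt8, 0.13 and 0.17 for Krt18, 0.023 and 0.35 for Vim, and -0.23 and -0.22 for Fn1. Within DiD+ cells the G2/M values were 0.34 for Krt8, 0.20 for Krt18, 0.39 for Vim and -0.17 for Fn1. The part of the cell cycle in the Cdh2 difference was not tested.

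Vim (ENSMUSG00000026728, chr2:13573927-13582826, plus strand), the intermediate filament protein of mesenchymal cells, was high in every cell of both groups. It ran from 989 CPM in cell 76 through a median of 3702 CPM to 8391 CPM in cell 67 among DiD+ cells. Among DiD- cells it ran from 2250 CPM in cell 79 through a median of 4155 CPM to 6944 CPM in cell 40. The ranges overlapped, with 3 DiD+ cells (37, 64 and 76) below and 1 (67) above every DiD- cell. Summed, it was 3815 CPM (3805 to 3825) in DiD+ and 4165 CPM (4154 to 4177) in DiD-, a log2 ratio of -0.13, at the 38.4th percentile. The sign was not stable, with 0.075 among cells 63 to 92 and -0.31 among cells 17 to 46, and the ratio was -0.020 without the wells with host RNA. Vim varied little between cells. Its coefficient of variation was 0.394 in DiD+ and 0.263 in DiD-, against medians of 0.482 and 0.366 over the 145 genes that reached 1000 CPM.

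Fn1 (ENSMUSG00000026193, chr1:71585520-71653200, minus strand), which encodes the matrix glycoprotein bound by integrins, was the gene of the 5 that was higher in DiD+ cells. In these it ran from 219 CPM in cell 29 through a median of 2776 CPM to 10292 CPM in cell 70, and in DiD- cells from 188 CPM in cell 92 through a median of 1519 CPM to 9333 CPM in cell 71. The ranges overlapped over nearly their whole length. Summed, it was 2796 CPM (2788 to 2805) in DiD+ and 1858 CPM (1850 to 1866) in DiD-, a log2 ratio of 0.59, or 1.505-fold higher, at the 86.3rd percentile. Leaving out 1 cell gave 0.48 (without DiD+ cell 70) to 0.83 (without DiD- cell 71, which held 18.3% of the DiD- counts). The 7 wells with macrophage RNA held 500 to 4506 CPM of Fn1, within the range of the other cells, and the ratio was 0.68 without them and 0.72 without all wells with host RNA. The part of macrophage RNA in the Fn1 level was not tested. An overlapping antisense gene, Apol7d, had 25 and 18 counts, and the cDNA kit does not mark strand.

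Fn1 varied strongly between cells, with a coefficient of variation of 0.793 in DiD+ and 0.987 in DiD-, higher than in 78.6% and 93.8% of the 145 abundant genes. Its level went against that of the keratins within DiD- cells, with a rho of -0.46 with Krt8 and -0.44 with Krt18. Within DiD+ cells the same values were 0.0051 and 0.038. The difference between these correlations was not tested. Fn1 and Vim were nearly unrelated over the 60 cells (rho 0.066). The genes most like Fn1 over the 60 cells were Tmem106b (0.70), Nck2 (0.65) and Thbs2 (0.60), the last of which encodes the matrix protein thrombospondin 2. Within DiD+ and DiD- cells they had 0.63 and 0.78, 0.68 and 0.47, and 0.60 and 0.69. The genes most like Vim over the 60 cells were Eef2k (0.49), Ahcy (0.48) and Gnas (0.47). Within DiD+ and DiD- cells they had 0.37 and 0.60, 0.26 and 0.65, and 0.45 and 0.55.

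**Figure D3:**
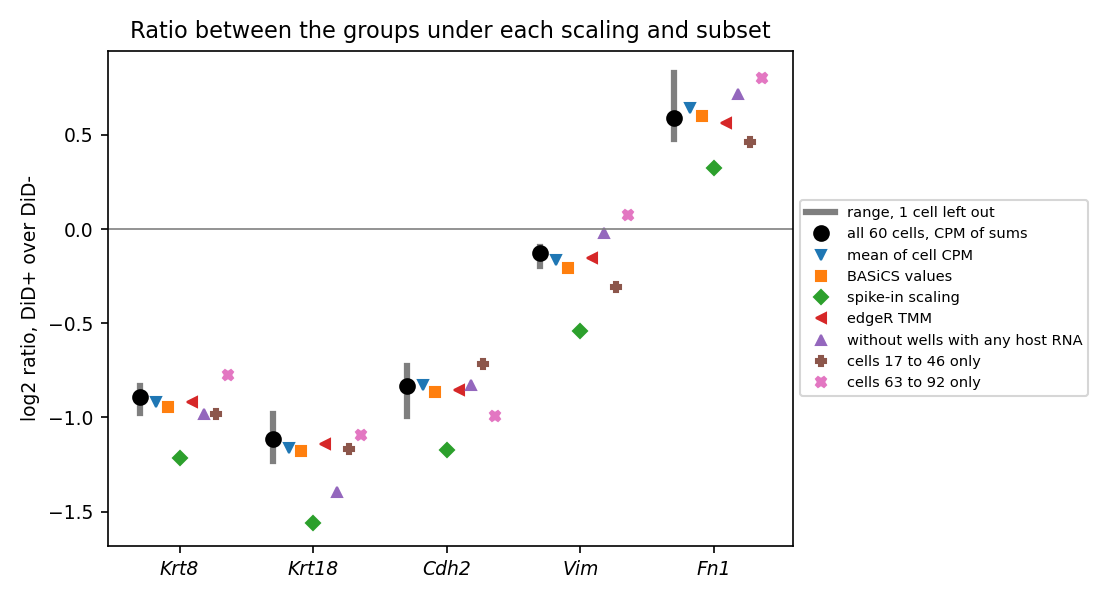
Log2 ratio of DiD+ over DiD- for the 5 detected genes, with all 60 cells (black points), its range when 1 cell is left out (grey bars) and its value under other scalings and subsets (symbols). Krt8, Krt18 and Cdh2 lie below 0 and Fn1 above 0 under each setting shown, whereas Vim crosses 0.

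Levels of different genes were ordered per kilobase of the longest coding transcript. In DiD+ sums the order was Vim (1739 CPM per kb), Krt8 (935), Krt18 (507), Fn1 (336), Cdh2 (12.5) and Krt14 (0.625). In DiD- sums it was Vim (1899), Krt8 (1734), Krt18 (1098), Fn1 (223) and Cdh2 (22.5). The place of Vim in this order depends on the length taken. With the union of annotated exons Vim had 804 CPM per kb in DiD+ and 878 in DiD-. These values were below Krt8 in both groups, and in DiD- also below Krt18 (1098). As neighbours, Vim and Krt8, Krt8 and Krt18, and Krt18 and Fn1 overlapped in their ranges over cells, and the sums of Cdh2 lay far below those of Fn1.

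Single wells held RNA of epithelial and of mesenchymal genes at once. The shares below are over all 60 wells, so they include the 10 wells with host RNA. Krt8, Krt18, Vim and Fn1 were each present at 10 counts or more in 29 of 32 DiD+ cells (90.6%, 74.98 to 98.0) and 28 of 28 DiD- cells (87.7% or more). With Cdh2 added, 19 of 32 (59.4%, 40.6 to 76.3) and 26 of 28 (92.9%, 76.5 to 99.1) held all 5. No cell held 10 counts of Krt7, Krt19, Epcam or Cdh1. Within a cell, the CPM of Fn1 exceeded that of Vim in 11 of 32 DiD+ cells (34.4%, 18.6 to 53.2) and 3 of 28 DiD- cells (10.7%, 2.27 to 28.2). The CPM of Krt8 exceeded that of Vim in 3 of 32 DiD+ (9.38%, 1.98 to 25.02) and 10 of 28 DiD- cells (35.7%, 18.6 to 55.9). These counts use CPM without a correction for length, so they compare the groups and not the genes.

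A score was the mean log2(CPM + 1) of the 7 epithelial genes in a cell less the mean of the 3 mesenchymal genes. The score has no true 0, as CPM were not corrected for length. It was below 0 in all 60 cells, from -8.27 (cell 23) through a median of -6.22 to -3.95 (cell 29) in DiD+, and from -8.07 (cell 65) through a median of -6.38 to -4.35 (cell 40) in DiD-. The difference of medians was 0.16, against an SD over cells of 1.20 in DiD+ and 0.890 in DiD-, and the ranges of the groups overlapped almost wholly. Of the 7 epithelial genes, 4 added only zeros or near zeros to the score, and over the 60 cells it followed Cdh2 most among the 5 detected genes (rho -0.68). Among other genes, it went most with 2200002D01Rik (0.48), Rhoc (0.47) and Glipr1 (0.46) and most against Lcorl (-0.56), Strn3 (-0.53) and Cul4a (-0.50). Within DiD+ and DiD- cells 2200002D01Rik had 0.48 and 0.50, Rhoc 0.50 and 0.33, and Glipr1 0.54 and 0.43. On the other side Lcorl had -0.68 and -0.41, Strn3 -0.37 and -0.80, and Cul4a -0.49 and -0.49.

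A score over Krt8 and Krt18 less Vim and Fn1, chosen after these values were seen, gave another order. It had a median of -1.63 in DiD+ cells, from -6.75 (cell 41) to 0.86 (cell 88), and of -0.11 in DiD- cells, from -4.97 (cell 65) to 2.76 (cell 92). It was above 0 in 5 of 32 DiD+ and 13 of 28 DiD- cells, and the ranges overlapped. With Cdh2 added to its mesenchymal side the medians were 0.30 and 1.53, and 17 DiD+ and 23 DiD- cells lay above 0. These scores have no true 0 either, so the counts compare the groups and put no cell in a class. The sign of the difference between the groups therefore depends on which of the genes enter the score.

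**Figure D4:**
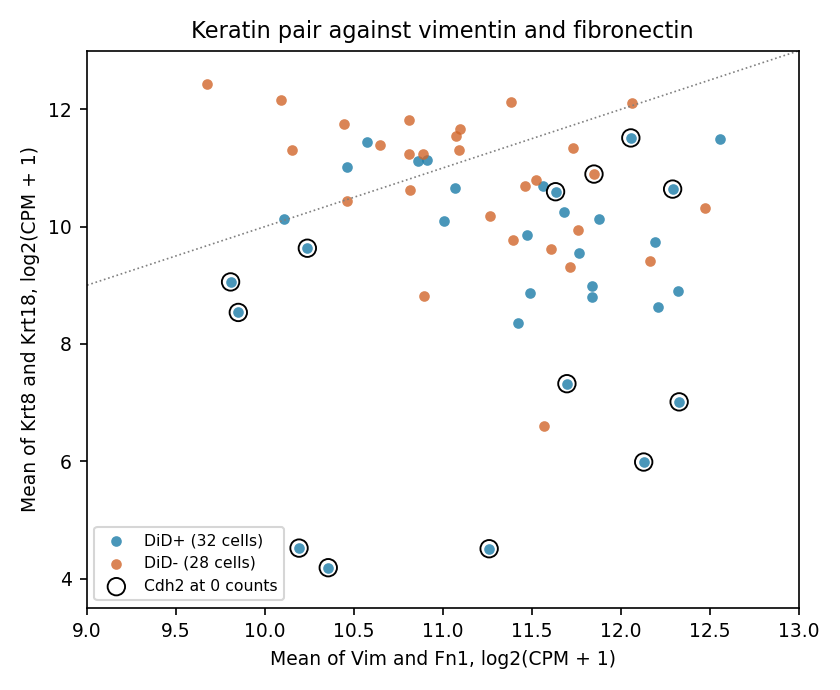
Mean log2(CPM + 1) of Krt8 and Krt18 against that of Vim and Fn1 in each of 32 DiD+ (blue) and 28 DiD- (orange) cells, with rings around cells with 0 counts of Cdh2 and a dotted line where both means are equal. The 5 DiD+ and 13 DiD- cells with a score above 0 lie above the line, which marks no border between states. Of the 13 ringed cells 12 are DiD+.

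Other genes of epithelial and mesenchymal structure were read from fixed lists, by the 2 highest and 2 lowest ratios of each. These lists, too, were chosen with earlier results of these data known. Of 13 other keratins, 8 had 0 counts, and the 2 with at least 10 CPM were Krt13 (39.01 CPM in DiD+ and 29.4 CPM in DiD-, log2 ratio 0.40) and Krt80 (-0.26), with 0.68 and -0.45 without the wells with host RNA. Of 15 regulators of epithelial identity 13 were below 1 CPM in both groups, among them Esrp1 with 0 counts, and Gata3, a luminal factor, was the only one at 10 CPM (-0.076). Of 6 adherens junction genes with at least 10 CPM, 5 had a ratio above 0, against 49.5% of all genes, and none passed a log2 ratio of 1. These included Jup (plakoglobin, 0.90), Ctnnd1 (p120 catenin, 0.82), Vcl (vinculin, 0.14) and Ctnna1 (alpha catenin, -0.22). The cytoplasmic catenins were thus expressed in cells without Cdh1. With 1 cell left out the ratio of Jup was 0.73 to 1.13 and that of Ctnnd1 was 0.66 to 1.06, each highest without DiD- cell 71. Without the wells with host RNA they were 0.72 and 0.64.

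Junction genes outside the adherens type went in both directions. In the tight junction list, of 3 genes with at least 10 CPM, F11r (junctional adhesion molecule A) was higher in DiD+ (log2 ratio 1.52) and Cldn1 (claudin 1) was lower (-1.55). Past a log2 ratio of 1, 6.38% of all genes were higher and 3.18% lower. Tjp1 had 0.12, which turned to -0.35 without the wells with host RNA. In the desmosome list, of 4 such genes, Perp (1.68) and Ppl (periplakin, 1.57) were higher past 1, with Pkp3 at 0.32 and Pkp2 at -0.24, and Dsp, Dsg2 and Dsc2 had 0 counts. Perp, Ppl, F11r and Cldn1 kept their side of 1 without the wells with host RNA (1.77, 1.56, 1.65 and -1.17) and with any 1 cell left out. Among other filament genes and linkers, Nefl (neurofilament light chain) was lower in DiD+ (3.21 against 50.6 CPM, -3.62), and Nes (nestin, 0.72), Dst (0.50) and Plec (plectin, -0.18) did not pass 1. Of the Nes counts of DiD+ cells 39.5% came from cell 19, and without the wells with host RNA its ratio was 0.13.

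Of 8 other mesenchymal genes with at least 10 CPM, 3 were higher past a log2 ratio of 1 and none lower, against 6.38% and 3.18% of all genes, with a median of 0.64 against -0.0041 over all genes. They were Tnc (tenascin C, 2.10), Fstl1 (1.52) and Fbn1 (fibrillin 1, 1.20), the last chosen after its value was seen, while Lgals1 had -0.58 and S100a4 -0.13, which turned to 0.041 without the wells with host RNA. One cell decided Tnc, since DiD+ cell 31 held 71.3% of its DiD+ counts and the ratio without it was 0.52. Without DiD+ cell 41 the ratio of Fbn1 was 0.81. Among 4 fibronectin receptor genes none passed 1, from Sdc4 (0.22) and Itgb1 (-0.23) to Itgav (-0.24) and Itga5 (-0.77). Without the wells with host RNA, Sdc4 had 0.033 and Itgav -0.45. Thus the ratio of the alpha 5 integrin chain was below 0, opposite to that of Fn1, its ligand. Of 5 transcription factors of the transition with at least 10 CPM, Zeb2 (1.28) and Snai2 (1.18) were higher past 1, against 6.38% of all genes. Zeb1 had 0.44 and Twist2 -0.35, and without the wells with host RNA they had 0.17 and -0.86. Without DiD+ cell 80 the ratio of Snai2 was 0.97. The S phase and G2/M lists had medians of -0.87 and -0.67, and of -0.74 and -0.35 without the wells with host RNA. In the S phase list, 6 of 22 genes were lower past 1, and 4 without these wells. In the G2/M list, 3 of 22 genes were lower past 1, and 0 without these wells. Of all genes 3.18% were lower past 1.

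**Figure D5:**
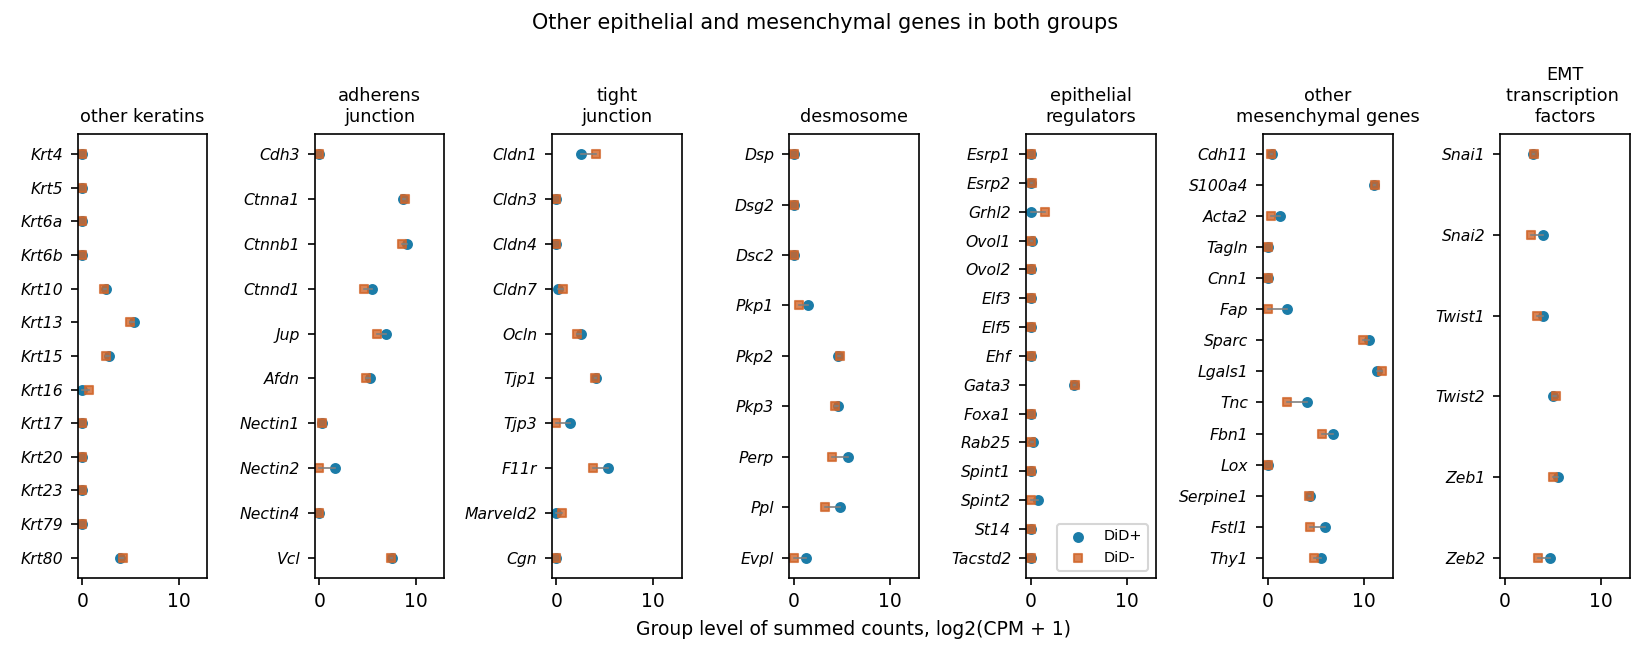
Group level of the other epithelial and mesenchymal genes, as log2(CPM + 1) of summed counts in DiD+ (blue circles) and DiD- (orange squares), with a grey line between the groups. Most of the other keratins and all epithelial regulators but Gata3 and Grhl2 lie below 1 CPM in both groups, and Grhl2 rests on 1 DiD- cell.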

How the data were processed

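The samples were 60 single cells, grouped as DiD+ (32) or DiD- (28) by the labels. Per the labels and the study's methods, cDNA was made with a SMARTer kit and ERCC spike-ins, and STAR placed the reads on GRCm38/mm10, to which spike-in and transgene sequences had been added. The authors deposited expected counts from RSEM, not normalized, for 47729 mouse genes, 92 spike-ins and 4 transgenes, and these were rounded to whole numbers. A second table deposited by the authors, a signal normalized with BASiCS, held 6 of the 10 genes and was used as an alternative.

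Spike-ins and transgenes stayed out of totals. Counts were summed within a group and divided by its total, and log2 ratios are of CPM with a pseudocount of 1. Genes had to reach 10 CPM in a group. These ratios understate differences of low genes. Alternatives were other scalings, pseudocounts of 0.1 and 10, no minimum, thinning, subsets of cells and leaving out each cell. Scores over fewer genes, and values of listed genes without host wells or 1 cell, were added after the data were seen. The named genes were the 10 genes, the 2 highest and 2 lowest ratios of each list, and the 3 genes with the highest rho with the score, Krt18, Vim and Fn1 (for the score also the 3 lowest). Epcam, all at 0, gave none. The genes and lists were chosen with earlier results of these data known. Gene positions are from GENCODE M21 and upstream sequences from RefSeq. Tools were Python 3.11.15, scipy 1.17.1, pandas 2.3.3, numpy 2.4.6 and matplotlib 3.10.9. Scaling factors came from edgeR 4.0.16 and DESeq2 1.42.0 in R 4.3.3, and the steps were tested on simulated data. A gene of the tight junction list is not reported here.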

Additional observations from a re-analysis of the deposited data

How the results depend on the processing

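Krt8, Krt18, Cdh2 and Fn1 kept the sign of their log2 ratio under all 13 other settings. Among these settings, having no minimum and changing the pseudocount could not turn the sign of a single gene, so they do not check it. The sign of these genes was also kept with each of the 60 cells left out. Vim turned to 0.075 among cells 63 to 92. The count of genes past a log2 ratio of 1 was 1 and rose to 3 (Krt8, Krt18 and Cdh2) with spike-in scaling, which moved the median of all genes to -0.39, and it was 0 to 1 with 1 cell left out (0 without DiD- cell 27). Relative to that median, Krt8 was then at -0.82, Krt18 at -1.17, Cdh2 at -0.78, Vim at -0.15 and Fn1 at 0.72.

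The epithelial median of -1.003 was -1.04 as the mean of cell CPM, -1.06 with BASiCS values, -1.39 with spike-in scaling, -1.03 with TMM, -1.03 with DESeq2 factors, -0.53 with no minimum, -1.04 when thinned, -1.20 without macrophage wells, -1.19 without all host wells, -1.07 among cells 17 to 46 and -0.93 among cells 63 to 92, and -1.09 to -0.93 with 1 cell left out. The mesenchymal median of -0.13 was, in the same order without the setting of no minimum, -0.16, -0.21, -0.54, -0.15, -0.16, -0.16, -0.047, -0.020, -0.31 and 0.075, and -0.20 to -0.094 with 1 cell left out.

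The score difference of 0.16 was 0.49 with BASiCS values, 0.26 with spike-in scaling, 0.60 and -0.34 with pseudocounts of 0.1 and 10, 0.17 when thinned, 0.079 without macrophage wells, -0.31 without all host wells, 0.12 among cells 17 to 46, -0.092 among cells 63 to 92, 0.059 with each gene divided by its SD, 0.12 as a mean, and -1.23 and -1.52 over the detected genes with and without Cdh2. With 1 cell left out it was 0.16 to 0.17, and with 1 gene left out -0.79 (Cdh2), -0.019 (each of Krt7, Krt19, Krt14, Epcam and Cdh1), 0.32 (Krt8), 0.40 (Fn1), 0.49 (Vim) and 0.67 (Krt18). The cause was not tested, beyond the zeros named in the text. No paired analysis was possible because the groups share no replicate numbers in the labels and no test was run. Depth sets the limits given for genes at 0 counts, and as all cells came from 1 pool of mice, no setting gives an error between animals.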
